A study of Mus musculus with 12 samples.

Results

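Transcript levels were described in mouse lung tumours that carried activated K-ras and an intact, wild-type Dnmt3a gene. The members are the wild-type (WT) RNA channels of the 12 arrays, taken by the genotype and dye in the labels, which are 12 of the 24 dye channels in the series. In the other 12 channels the same arrays carried RNA from Dnmt3a knockout (KO) tumours, which is not described here. The tumours came from K-ras LSL-G12D mice crossed with Dnmt3a conditional KO mice, strain C57/129. In these animals a loxP-flanked stop holds the mutant K-ras allele silent until Cre recombinase removes it. Adenovirus carrying Cre was given to the lungs at 6 to 12 weeks of age, by the trachea or the nose, so any lung cell that took up virus could recombine, and no cell-type promoter is named. All WT tumours described shared the recombined G12D allele, the Cre virus and the WT Dnmt3a locus, and no lung without a tumour was among them.

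The 12 WT samples fell into 4 sources by age and sex. Arrays 1 to 4 held tumours of males of age 42.6, arrays 5 to 8 males of age 41.3, arrays 9 and 10 females of age 47.6, and arrays 11 and 12 males of age 37.3. The labels give no unit for these ages. They call each array a biological replicate, but do not say whether arrays of 1 age are separate animals or tumours of 1 animal. Every p-value given therefore rests on the scatter among the 12 arrays alone, and part of that scatter may be technical. The RNA came from whole frozen tumours with no sort, so host lung, vessel and blood cells were included.

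Alveolar type 2 cells line the air sacs, make surfactant and are one cell of origin of K-ras lung adenomas. Club cells of the airways secrete protective proteins, and ciliated cells beside them move mucus. Activated K-ras signals through the MAPK cascade, which switches on feedback inhibitors such as the Dusp phosphatases and Sprouty proteins. Dnmt3a sets methyl marks on DNA, and Dnmt1 with Uhrf1 copies them when DNA is replicated.

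Levels are log2 processed intensities of the WT dye, scaled so that every array has the same 75th percentile. A step of 1 is a doubling of signal. A probe's brightness also depends on the probe, so the level of one gene is not set against that of another as an amount of RNA. In bulk tissue, fewer cells of a type and less RNA per cell cannot be told apart. The WT RNA was in Cy3 on arrays 1, 3, 5, 7, 9 and 10 and in Cy5 on the others. Arrays 1 to 4 shared slide 1, arrays 5 to 8 slide 2 and arrays 9 to 12 slide 3. Ages 42.6 and 41.3 were each hybridised in both dyes on a slide of their own, so source and slide cannot be told apart for them. Ages 47.6 and 37.3 shared slide 3 but were each in 1 dye, so source and dye cannot be told apart between them. Of 41174 probes, 81.6% to 89.4% were well above background on slides 1 and 2 and 61.2% to 71.3% on slide 3, and no spot was saturated. Array 11 stood apart in airway genes and array 2 in mucin genes, as given with those lists, and the spread of the club and ciliated lists is shown with and without array 11.

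The 20749 genes were each represented by the probe of highest mean WT signal. Of these, 14636 genes (70.5%) were well above background on all 12 arrays. A further 5354 (25.8%) were so on 1 to 11 arrays and 759 (3.66%) on none. The median level of all genes was 9.30, and 10.60 among those measured on all 12 arrays. For the latter the median SD over the 12 arrays was 0.39, a factor of 1.31 per SD. The spread within a source (median SD 0.29) was about as large as that between the source means (0.30). Arrays of 1 source, which always shared a slide, correlated at a mean r of 0.969 over genes, and arrays of different slides at 0.951 to 0.952. The 4 pairs of different sources on the same slide, all in different dyes, had a mean r of 0.963 (0.954 to 0.969). The part of slide in these correlations was not tested. These correlations are across genes, which are not independent replicates.

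Surfactant protein C, the secreted product by which type 2 cells are best known, gave the highest mean signal of any gene. Sftpc (mm7, chr14:65165576-65165836) read 18.15, 19.47, 18.44 and 19.61 on arrays 1 to 4. It read 18.82, 19.53, 17.73 and 19.50 on arrays 5 to 8, 19.27 and 18.78 on arrays 9 and 10, and 19.84 and 20.08 on arrays 11 and 12. Its SD was 0.72. Both arrays of age 37.3, where the WT RNA was in Cy5, lay above all others. The other 3 sources overlapped, and the sources did not pass the test (limma adjusted p = 0.17). Every Sftpc value in Cy5 (19.47 to 20.08) lay above every value in Cy3 (17.73 to 19.27). The dye difference in the model was 1.25 ± 0.23 (SE) and did not pass (limma adjusted p for the dye = 0.31). Sftpb (chr6:72325120-72327691), a surfactant protein needed for the film at the air surface, ranged from 14.37 to 16.16 with an SD of 0.48 (limma adjusted p over sources = 0.13).

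Lyz2 encodes lysozyme, made by type 2 cells and by macrophages. It read 18.30, 18.86, 18.19 and 18.48 at age 42.6 and 17.05, 18.08, 16.88 and 17.91 at age 41.3. On slide 3 it read 18.88 and 18.14 at age 47.6 and 18.94 and 19.34 at age 37.3. Lyz2 was the one type 2 gene that differed over the sources (limma adjusted p = 0.0094), with the lowest source mean, 17.48, at age 41.3. The difference of 0.98 ± 0.21 (SE) between ages 42.6 and 41.3 alone missed the threshold (limma adjusted p = 0.057).

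Scgb1a1 and Cbr2 had larger SDs than the surfactant markers. Scgb1a1 (chr19:8763869-8763928), the main secretory protein of club cells, read 16.99, 17.68, 15.57, 15.32, 15.59, 16.31, 16.99, 14.06, 11.90, 16.38, 19.98 and 14.41 on arrays 1 to 12. It was lowest on array 9 and highest on array 11, a 272-fold range, and both arrays 9 and 10 and arrays 11 and 12 were pairs of 1 age. Its SD of 2.02 was not divided by source (limma adjusted p = 0.55). Cbr2, a carbonyl reductase of the lung, read lowest at 15.74 on array 12 and highest at 19.66 on array 11, a 15.2-fold range (SD 1.08, limma adjusted p over sources = 0.99). Selenbp1, a selenium-binding protein, lay between 17.36 and 18.69 on 11 arrays and at 16.50 on array 4. Its SD was 0.67, like that of Sftpc (limma adjusted p over sources = 0.57).

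**Figure D1:**
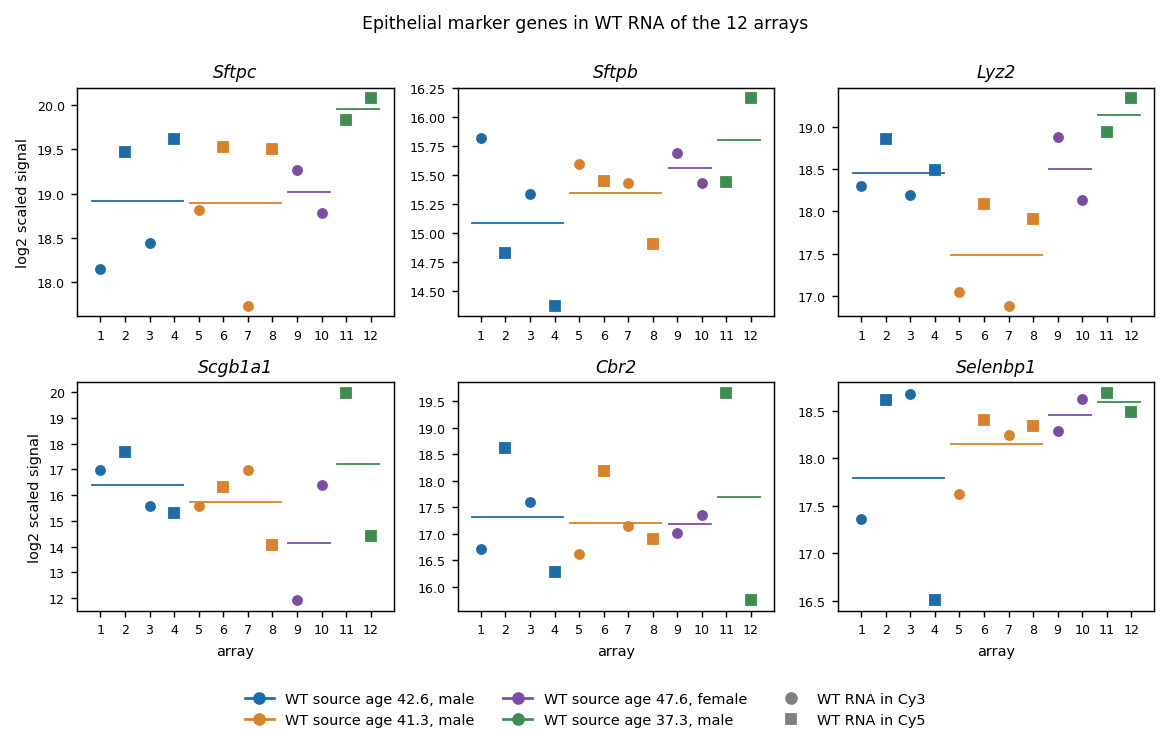
Log2 WT signal (vertical axis) of the 6 given markers on each of the 12 arrays, by WT source; circles are Cy3, squares Cy5, and lines are source means. Scgb1a1 spans 11.90 to 19.98, while Sftpb stays between 14.37 and 16.16.

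All 16 type 2 genes were measured, 15 of them on all 12 arrays. The list's median level was 15.95 against 9.30 over all genes, and its median SD 0.56 against 0.39. Of the 16, 1 differed over the sources (Lyz2), against 23.1% of the 19671 genes tested (4548 genes). None of the 16 differed between ages 42.6 and 41.3 by limma (3 were higher and 2 lower at an unadjusted p under 0.05), against 1.38% of genes (272 genes). The surfactant collectins Sftpa1 and Sftpd, which bind microbes, had medians of 18.36 (16.96 to 19.12) and 18.37 (17.69 to 19.00). Napsa, a protease that trims surfactant proteins, had a median of 17.30 (15.60 to 18.17). Abca3, which pumps lipid into lamellar bodies, read 14.79 to 16.29, and Lamp3, in their membrane, 15.85 to 17.87. Slc34a2, a phosphate carrier, read 14.63 to 15.83 and the chemokine Cxcl15 15.73 to 17.50. Hc, complement C5, was the loosest of those named, at 13.23 to 18.07 (SD 1.35). Over the list, each array's median deviation from each gene's own median ran from -0.43 to 0.55.

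The transcription factors of the lung epithelium had a median SD of 0.44, against 0.39 over all genes. None of the 18 on the list differed over the sources by limma (2 did at an unadjusted p under 0.05) or between ages 42.6 and 41.3 (2 higher and 2 lower unadjusted), against 23.1% and 1.38% of all genes tested. Of the 18, 16 were measured on all arrays. Nkx2-1, the master regulator of lung identity, lay between 12.96 and 14.08 (SD 0.31). Foxa2, its partner, read 15.29 to 16.60, Gata6 13.10 to 13.99 and Cebpa 13.78 to 15.06. Sox9, a factor of distal lung progenitors, ranged from 7.41 to 14.08.

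The airway genes were set apart by array 11. Of the 13 club cell genes measured on all arrays, 8 (61.5%) were highest on array 11, where 9.10% of all genes measured on all arrays were highest. Their median deviation there was 2.50, and 0.41 at most elsewhere (array 7). Scgb3a1, a secretoglobin, read 18.01 on array 11 and 11.06 to 15.38 on the others, a 124-fold range. Scgb3a2, its relative, read 17.53 on array 11 and 10.06 to 15.03 on the others. Array 12, of the same age, had 10.98 for Scgb3a2, so the pair differed within its source. The median SD of the club list was 1.08, and 0.895 without array 11. Cyp2f2, the club cell cytochrome that activates naphthalene, was the one member of 14 that differed over the sources (limma adjusted p = 0.034). Of all genes tested, 23.1% did. Cyp2f2 had no value on array 2.

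Ciliated cell genes did the same. Of the 9 measured on all arrays, 7 (77.8%) were highest on array 11, with a median deviation of 3.09 there and 0.50 at most elsewhere. Foxj1, the factor that starts the cilium programme, read 14.46 on array 11. Foxj1 lay between 4.66 and 9.63 on the other arrays and was well above background on 11 arrays. Tekt1, a filament protein of the axoneme, read 13.41 on array 11 against 7.86 to 10.51, and Dynlrb2, a dynein light chain, 14.56 against 10.48 to 12.31. Without array 11 the list's median SD was 0.477 in place of 1.06. The part of airway tissue in the sample in these values was not tested.

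Mucin genes had another array. The goblet list deviated by 2.80 on array 2 and by 1.21 on array 11. Only 4 of its 9 measured genes were on all arrays. None of the 9 differed over the sources by limma (1 at an unadjusted p under 0.05), against 23.1% of all genes tested. Muc5b, a gel-forming mucin, read 14.09 on array 2 and 8.72 to 13.23 elsewhere, and Muc4, a membrane mucin, 13.24 on array 2 and 13.38 on array 11. Agr2, which folds mucins, was well above background on 10 arrays. Of 11 basal and squamous genes 2 differed over the sources, against 23.1% of all genes tested. Krt5, a basal keratin, read 8.58 to 10.19 and Krt14 8.80 to 9.53. Sox2, an airway factor, was well above background on 9 arrays and read 12.16 on array 2.

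**Figure D2:**
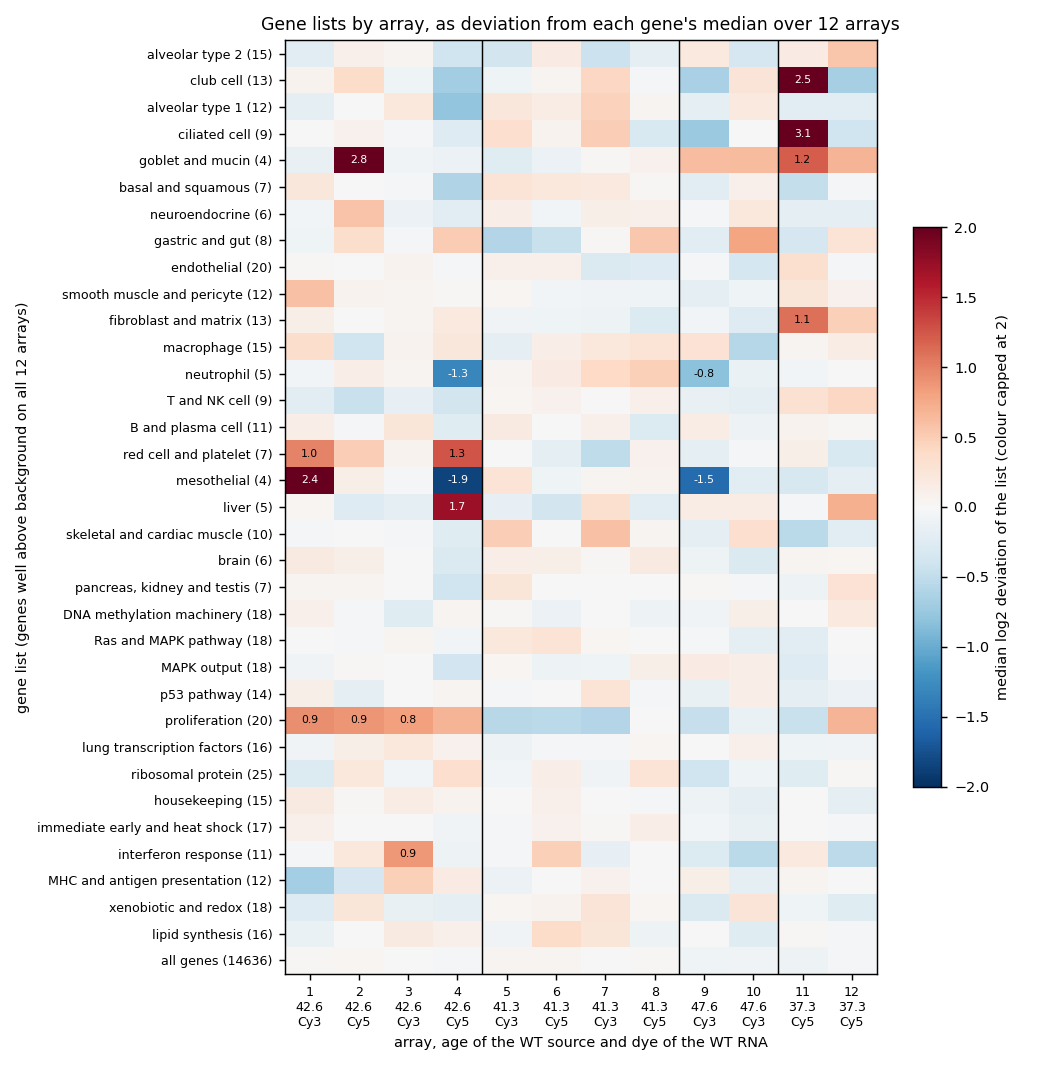
Median log2 deviation of each gene list on each array from each gene's own median, for genes well above background on all 12 arrays, with colours capped at 2. The club and ciliated lists stand at 2.50 and 3.09 on array 11, and proliferation is above 0.6 on arrays 1 to 4 and on array 12.

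Genes of other epithelial states were present at scattered levels. Of the 12 gastric and gut genes, 8 were on all arrays. Gkn2, a gastrokine known from the stomach, differed over the sources (limma adjusted p = 0.036), at 17.31 and 17.49 at age 47.6 and 14.30 and 14.92 at age 37.3. Hnf4a, a gut and liver factor, read 7.92 to 9.57 and Ctse, a gastric protease, 10.05 to 14.61, while Cdx2 was not well above background on any array. Among 11 neuroendocrine genes Uchl1, a ubiquitin hydrolase of neuroendocrine cells, was higher at age 42.6 than at 41.3 by 1.37 (limma adjusted p = 0.010).

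Alveolar type 1 cells are the thin cells of gas exchange. All 12 genes of their list were on all arrays, against 70.5% of all genes, with a median level of 14.61. Which cells these transcripts came from was not tested. Ager, the receptor for glycated proteins, read 13.49 to 15.68 and the water channel Aqp5 15.30 to 18.18. Hopx, a homeodomain protein, read 13.60, 14.56, 13.98 and 13.81 at age 42.6 and 16.22, 15.95, 15.82 and 14.95 at age 41.3. These 2 groups did not overlap, as was the case in this direction for 5.09% of all genes, and Hopx was lower at age 42.6 by 1.75 (limma adjusted p = 0.031), the one member of the list to pass.

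Vessel genes were among the steadier lists. All 20 endothelial genes were on all arrays, against 70.5% of all genes, at a median level of 12.61 and a median SD of 0.35. Over the sources 3 of the 20 differed, against 23.1% of all genes tested. They were Kdr, the VEGF receptor (limma adjusted p = 0.014), Plvap, a component of fenestrae (0.014), and Ets1, an endothelial transcription factor (0.019). Kdr had its highest source mean, 12.21, at age 37.3. Ets1 was higher at age 42.6 than at 41.3 by 0.66 (limma adjusted p = 0.045). Pecam1, an endothelial junction protein, lay between 9.05 and 9.75.

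Of the 12 smooth muscle and pericyte genes, 6 differed over the sources, against 23.1% of all genes tested. Rgs5, a pericyte regulator of G proteins, read 13.10, 13.47, 13.53 and 13.88 at age 42.6 and 11.23, 11.90, 11.32 and 11.01 at age 41.3. The groups did not overlap, as in this direction for 4.57% of all genes, and the 4.37-fold difference passed the test (limma adjusted p = 0.0053). Cspg4, a pericyte proteoglycan, was also higher at age 42.6, by 0.70 (limma adjusted p = 0.048).

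Of the 14 fibroblast and matrix genes, 8 differed over the sources, against 23.1% of all genes tested. Among them were Col1a1, Col1a2 and Col3a1, the fibrillar collagen chains, Pdgfra, Fbln1 and Sparc. Col1a1 read 14.83 to 15.87 on arrays 9 to 12 and 13.35 to 14.73 on arrays 1 to 8 (limma adjusted p = 0.021). Sparc, a collagen-binding protein, ran the other way, at 14.76 to 15.38 on arrays 9 to 12 and 15.89 to 16.40 on the others (limma adjusted p = 0.0051). Col3a1 read 11.76, 12.04, 12.85 and 12.68 at age 41.3 and 14.63 and 14.45 at age 37.3. None of the 14 differed between ages 42.6 and 41.3 by limma, and 5 were higher at age 42.6 at an unadjusted p under 0.05. The list's median deviation was 1.1 on array 11 and 0.47 on array 12.

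Immune genes were read at many levels. All 15 measured macrophage genes were on all arrays, against 70.5% of all genes. Of the 15, 4 differed over the sources (C1qa, C1qb, Ctsk and Fcgr1), against 23.1% of all genes tested. Marco, a scavenger receptor of alveolar macrophages, read 14.73 to 16.93, Chil3, a chitinase-like protein, 17.53 to 19.31, and Apoe, a lipid carrier, 15.06 to 17.06. C1qa, which starts the classical complement cascade, had source means of 12.15, 11.39, 10.64 and 11.79 at ages 42.6, 41.3, 47.6 and 37.3 (limma adjusted p = 0.015). Lymphoid and granulocyte lists had lower median levels: 7.56 for T and NK cell, 8.95 for B cell and 7.12 for neutrophil genes. The macrophage list had 12.58 and all genes 9.30. On all arrays were 9 of 15 T and NK cell genes (60%), 11 of 13 B cell genes (84.6%) and 5 of 11 neutrophil genes (45.5%), against 70.5% of all genes. Jchain, which links secreted antibody, read 11.91 to 14.45.

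Haemoglobin genes separated the male sources on slides 1 and 2. Hbb-bt, an adult beta globin, read 18.06, 17.76, 17.99 and 17.73 at age 42.6 and 16.02, 15.97, 15.32 and 15.99 at age 41.3. It read 15.97, 16.29, 16.41 and 15.48 on arrays 9 to 12, so age 42.6 lay above every other array. The difference from age 41.3 was 4.17-fold (limma adjusted p = 0.0048). Hba-a1, an alpha globin, was 3.15-fold higher (limma adjusted p = 0.012) and Alas2, the first enzyme of haem synthesis in red cells, 3.42-fold higher (limma adjusted p = 0.0068). These were 3 of 10 measured red cell and platelet genes, against 0.925% of all genes higher at age 42.6. The other 7 did not pass, and the list's median difference was -0.12. Gp9, a platelet glycoprotein, had means of 7.17 at age 42.6 and 8.10 at age 41.3. Whether the amount of blood in the pieces differed was not tested.

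Of the 19 genes of the Ras and MAPK cascade, 18 were on all arrays, with a median level of 12.39 and a median SD of 0.32. Over the sources 3 of the 19 differed, Hras and Sos2 among them, against 23.1% of all genes tested. Hras, a Ras GTPase, had source means of 13.57, 14.03, 12.89 and 12.81 at ages 42.6, 41.3, 47.6 and 37.3 (limma adjusted p = 0.011). The 18 measured MAPK output genes, which ERK signalling can switch on, were on all arrays, against 70.5% of all genes. Of the 18, 2 (Spred2 and Ccnd1) differed over the sources, against 23.1% of all genes tested. ERK signalling itself was not measured. Dusp6, the phosphatase that turns ERK off, had a median of 16.86 (16.22 to 17.62), and Dusp4, a nuclear relative, 13.69 (12.80 to 14.91). The Sprouty inhibitors Spry1 and Spry2 read 12.33 to 14.69 and 11.95 to 14.24. Areg, an EGF receptor ligand, read 16.73 on array 1 and 12.12 to 14.77 on the others.

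p53 restrains K-ras tumours, and 14 of the 17 genes of its pathway were on all arrays. Trp53, Cdkn1a and Phlda3, 3 of the 17, differed over the sources, against 23.1% of all genes tested. Trp53 had source means of 11.82, 12.35, 12.57 and 12.79 at ages 42.6, 41.3, 47.6 and 37.3 (limma adjusted p = 0.012). A second Trp53 probe did not keep the order of the first 2, at 8.65 to 9.12 at age 42.6 and 8.22 to 8.73 at age 41.3. That probe read 9.16 to 10.05 on arrays 9 to 12. Cdkn1a, the cell cycle inhibitor p21, was lowest at age 37.3 with a source mean of 10.83 (limma adjusted p = 0.044). Cdkn2a, which encodes p16 and p19Arf, was well above background on 11 arrays and read 7.06 to 11.44.

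Dnmt3a, intact in these tumours, was read at a median of 9.28 (8.80 to 10.25; chr12:3825243-3826024). Its source means were 8.98, 9.15, 9.68 and 10.08 at ages 42.6, 41.3, 47.6 and 37.3 (limma adjusted p = 0.022). The call was lost with the mean of its probes (0.167), with no scaling (0.988), and without array 2 (0.0542) or array 11 (0.0892). Dnmt1, the maintenance methyltransferase, read 9.74 to 11.48, with its highest source mean, 10.88, at age 42.6 (limma adjusted p = 0.027). The Dnmt1 call was lost without array 1 (0.0576), array 2 (0.0575) or array 10 (0.0741). Dnmt3b, the other de novo enzyme, was well above background on 10 arrays with a mean of 6.74.

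Uhrf1, which brings Dnmt1 to newly copied DNA, was the one methylation gene that differed between ages 42.6 and 41.3. It read 12.01, 12.18, 12.31 and 11.55 at age 42.6 and 8.87, 8.88, 8.80 and 9.95 at age 41.3. On slide 3 it read 9.52, 10.28, 9.88 and 10.64, below all arrays of age 42.6 and overlapping age 41.3. The difference was 2.89 ± 0.32 (SE), 7.41-fold (limma adjusted p = 0.0038), and a second probe gave the same order. Of the 19 measured genes of the list, 3 differed over the sources, against 23.1% of all genes tested. Between ages 42.6 and 41.3, 18 did not pass.

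Among the 20 genes of highest mean signal, with means of 18.30 to 19.10, were Sftpc, Sftpd and Sftpa1 of the type 2 list. A further 10 were ribosomal protein genes, among them Rps14, Rps23, Rps18 and Rplp0. The rest held Wfdc2, a secreted protease inhibitor, Ctsh, a cathepsin that processes surfactant protein, Chil3, Fth1, the ferritin heavy chain, Selenbp2 and Lrrc58. The high values of Lrrc58 and of Ptprz1, also among the 20, each rest on 1 probe. The other probes of Lrrc58 had means of 6.54, 6.65 and 13.57, and those of Ptprz1 read 3.01 to 8.06. Ribosomal genes had a median level of 17.62 and a median SD of 0.36. Over the sources 4 of 26 differed, against 23.1% of all genes tested. Of 15 housekeeping genes 1, Tubb5, differed (limma adjusted p = 0.016).

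The 16 lipid synthesis genes had a median SD of 0.51, against 0.39 over all genes. Fasn, fatty acid synthase, read 17.29 to 18.64 and Scd1, a desaturase, 15.12 to 17.30. The 20 xenobiotic and redox genes had a larger median SD, 0.90, with Gstm1, a glutathione transferase, at 14.49 on array 1 and 16.93 to 19.75 elsewhere. Cyp1a1, a cytochrome induced through the aryl hydrocarbon receptor, was 10.7-fold lower at age 42.6 than at 41.3 (limma adjusted p = 0.0057).

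All 12 measured antigen presentation genes were on all arrays, against 70.5% of all genes, at a median level of 14.44 and a median SD of 0.42. H2-K1, a class I heavy chain, read 16.87 to 18.36 and Cd74, the class II invariant chain, 15.28 to 17.49. Ciita, the class II transactivator, was the one member of 12 to differ over the sources (limma adjusted p = 0.0062), against 23.1% of all genes tested. Its means were 10.98 and 11.48 at ages 47.6 and 37.3 and 9.41 and 8.83 at 42.6 and 41.3. Interferon genes were fainter, 11 of 20 on all arrays, with a deviation of 0.87 on array 3. Of the 20, 4 differed over the sources, against 23.1% of all genes tested. Of 18 measured immediate early and heat shock genes 5 differed, against the same 23.1%. Fos, an early response factor, read 10.34 to 11.82.

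Most genes varied little over the 12 arrays. Of the 14636 genes on all arrays, 1937 (13.2%) had an SD under 0.25, 8556 (58.5%) from 0.25 to 0.5, 3701 (25.3%) from 0.5 to 1, and 442 (3.02%) of 1 or more. Ell, an elongation factor of RNA polymerase II, was the steadiest, from 12.67 to 12.90 (SD 0.08), followed by Snx9 (0.09). Each rests on the brightest probe, and the other probes of Ell and Snx9 had SDs of 0.49 and 0.27. Bpifa1, a secreted protein of the upper airways, was the most variable, with an SD of 3.31. It read 9.98, 13.45, 10.39, 18.30, 6.34, 6.55, 10.95, 11.09, 8.93, 10.61, 14.72 and 10.45 on arrays 1 to 12, so that its high values lay on single arrays of different sources. Dlk1, an imprinted growth regulator, ran from 9.70 to 18.50 (SD 2.40), with a second probe from 7.83 to 16.05 (SD 2.35), and Ltf, lactoferrin, reached 17.55 on array 11 (SD 2.49).

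Single arrays accounted for part of the widest spreads. On 85 genes 1 array lay at least 4-fold above all others, and on 14 genes at least 4-fold below. Array 11 held 41 of the 85, array 1 23 and array 4 13. Of the 10 high genes with a further probe, 8 had that probe highest on the same array. Array 11's genes included Tekt1, Tppp3, Mlf1 and Ak7 of cilia and the 3 secretoglobins Scgb1a1, Scgb3a1 and Scgb3a2. Msln, a mesothelial surface protein, read 18.49 on array 1 and 10.31 on array 4.

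**Figure D3:**
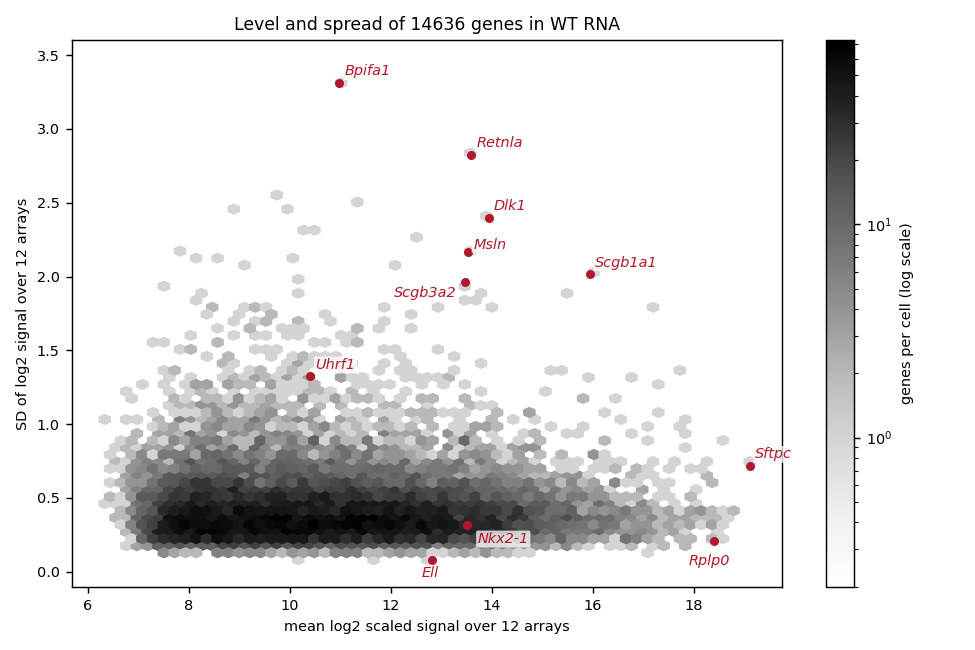
SD over the 12 arrays (vertical axis, log2) against mean log2 WT signal (horizontal axis) of the 14636 genes well above background on all arrays; colour gives the number of genes per cell. Most genes lie below an SD of 0.5, and Bpifa1 has the largest SD, 3.31.

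Over all sources 4548 of 19671 tested genes (23.1%) passed the limma test at an adjusted p under 0.05. Among genes on all 12 arrays it was 3013 of 14636 (20.6%). Slide 3 arrays, where fewer probes were well above background, lay above all others for 619 of the 14636 genes (4.23%) and below all others for 1362 (9.31%). The part of slide in these calls was not tested. Retnla, a resistin-like protein secreted in type 2 immune responses, read 19.13 and 18.96 at age 37.3. Retnla lay between 10.66 and 14.31 on the other 10 arrays (limma adjusted p = 0.0054), a 134-fold range of source means. Prdm16, a zinc finger regulator, read 12.03 and 11.76 at age 37.3 and 6.89 to 8.81 elsewhere (limma adjusted p = 0.0008).

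For some genes a source was not well above background, and only a bound on the fold can be given. It sets the bright source's mean against, per array of the dim source, the higher of the gene's own signal and the lowest signal among probes well above background. Gbp2b, an interferon-induced GTPase, was dim at age 47.6 and at least 7.87-fold higher at age 42.6, 5.57-fold at 41.3 and 9.12-fold at 37.3 (limma adjusted p over sources = 0.0012). Trim12, a tripartite motif gene (chr7:100356374-100356433), was dim at age 37.3 and at least 15.6-fold higher at age 41.3 and 16.3-fold at 47.6 (limma adjusted p over sources = 2.8e-06). Its mate Trim12a, at chr7:100360703-100360762, followed the same pattern. Near-identical Trim paralogs may bind the same probes.

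**Figure D4:**
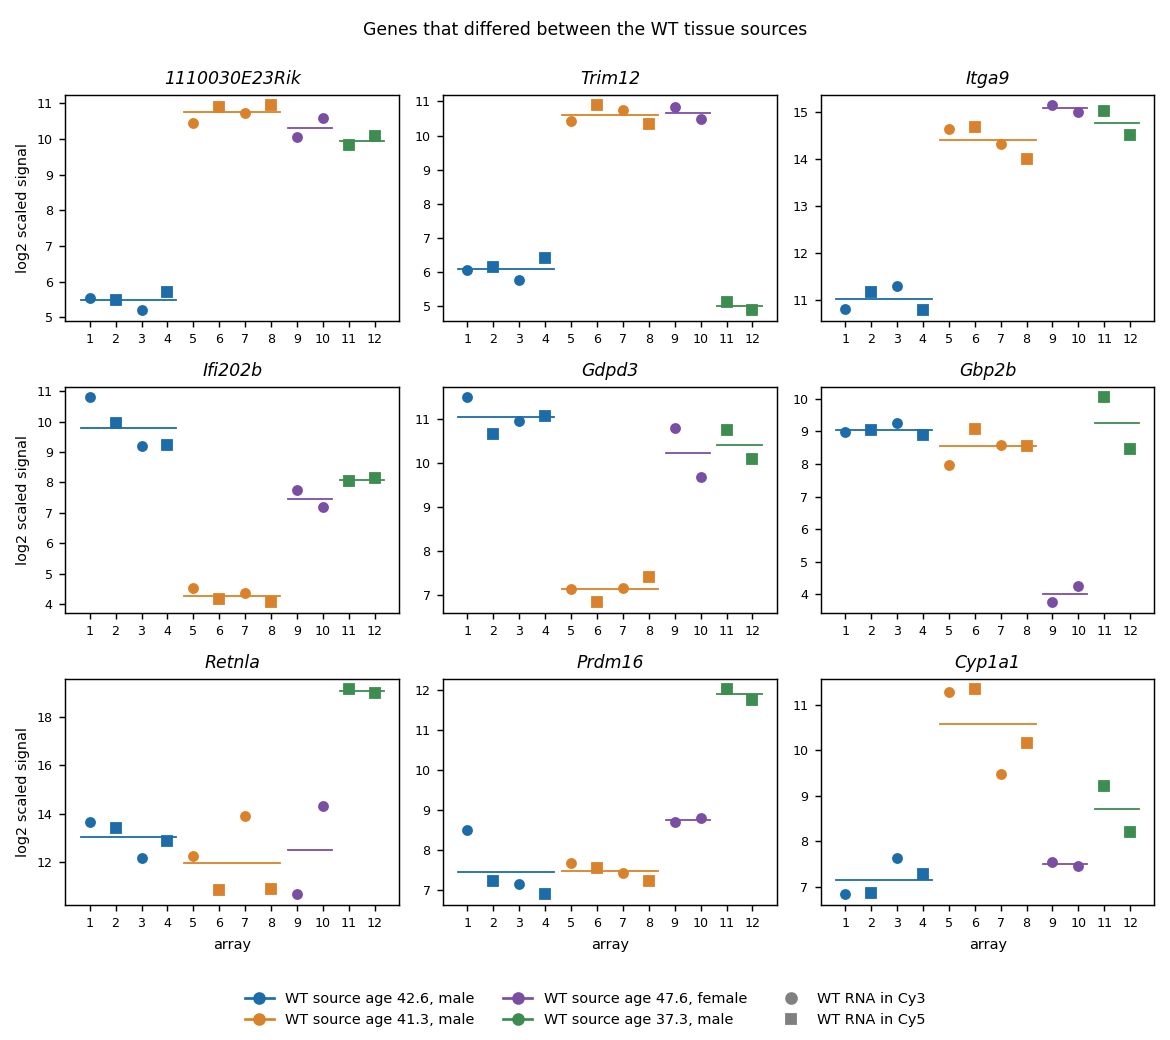
Log2 WT signal (vertical axis) of 9 genes on each of the 12 arrays, by WT source; circles are Cy3, squares Cy5, lines are source means. Retnla is above 18.9 on arrays 11 and 12 only, and 1110030E23Rik is below 6 on arrays 1 to 4 only.

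Ages 42.6 and 41.3, the only pair of sources with 4 arrays each, differed in 272 genes. Of these, 182 (0.925% of those tested) were higher at age 42.6 and 90 (0.458%) lower. The largest fall was in 1110030E23Rik, a gene of unknown function (chr7:122786138-122786197). It read 5.55, 5.50, 5.20 and 5.70 at age 42.6 and 10.46, 10.89, 10.73 and 10.95 at age 41.3, and 9.82 to 10.59 on slide 3. Its 38.6-fold difference had a limma adjusted p of 3.8e-07. Gdpd3, a phosphodiesterase gene close by on the same chromosome (chr7:122867564-122867737), went the other way, 15.1-fold higher at age 42.6 (limma adjusted p = 0.0002).

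Trim12 read 6.06, 6.16, 5.76 and 6.42 at age 42.6 and 10.41, 10.89, 10.75 and 10.34 at age 41.3, 22.6-fold lower (limma adjusted p = 2.6e-06). Itga9, an integrin chain, read 10.81, 11.18, 11.29 and 10.78 at age 42.6 and 14.01 to 15.15 on all other arrays, 10.6-fold lower than at 41.3 (limma adjusted p = 6.2e-05). Usp53 was lower by 2.32 (limma adjusted p = 0.001) on its brightest probe. Another Usp53 probe on all arrays differed less, at 6.93 to 7.98 at age 42.6 and 8.00 to 8.23 at age 41.3. Slc15a2, a peptide carrier, was lower by 3.06 (limma adjusted p = 0.0039), but its second probe did not follow. Lao1 was lower by 2.65 (limma adjusted p = 0.0097). All of these separated the 4 arrays of each source without overlap, as in this direction for 5.09% of all genes. They were named for such differences, so this adds no further support.

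Ifi202b, an interferon-inducible DNA sensor, read 10.81, 9.96, 9.21 and 9.24 at age 42.6 and 4.51, 4.17, 4.38 and 4.05 at age 41.3. The sources differed (limma adjusted p = 3.6e-05). No fold is given, since only 1 of the 4 arrays at 41.3 was well above background. Ly6d, a surface protein, read 17.04 to 18.04 at age 42.6 and 12.03, 12.48, 13.79 and 15.84 at age 41.3 (limma adjusted p = 0.034). Pam, an enzyme of peptide amidation, was 14.9-fold higher (limma adjusted p = 0.0048), but a second probe did not follow. That probe read 8.55 to 11.08 at age 42.6 and 8.51 to 8.78 at age 41.3. Casp4, an inflammatory caspase, was 12.1-fold higher (limma adjusted p = 0.0081). Dtl, which marks replication proteins for destruction, was 12.2-fold higher (limma adjusted p = 0.012). The 2 sources each had their own slide, so source and slide cannot be told apart in these values.

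Among 24 proliferation genes, 11 were higher at age 42.6 than at 41.3 and 13 did not pass. Of the 24 genes, 20 differed over the sources, against 23.1% of all genes tested. Between ages 42.6 and 41.3, 11 were higher and none lower at a limma adjusted p under 0.05 (21 and 0 at an unadjusted p), against 0.925% and 0.458% of all genes. The 11 were Mki67, Top2a, Ccna2, Ccnb2, Aurkb, Bub1, Birc5, Mcm2, Mcm5, Rrm2 and E2f1. Top2a rests on its brightest probe, faint at a mean of 6.82 and well above background on 10 arrays. Its next probe did not follow, at 5.62 to 6.38 at age 42.6 and 6.02 to 6.30 at age 41.3. For 22 of the 24 (91.7%) every array of age 42.6 lay above every array of age 41.3, as it did for 4.57% of all genes. The median difference of the list was 1.38, against -0.07 over all genes tested.

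Among replication genes, Mcm5, a subunit of the helicase that opens DNA, read 12.15, 11.97, 12.17 and 12.26 at age 42.6 and 9.39, 10.07, 10.08 and 10.38 at age 41.3. It was 4.46-fold higher (limma adjusted p = 0.013). Mcm2, of the same helicase, read 11.25 to 11.73 against 9.58 to 10.097 (limma adjusted p = 0.011). Rrm2, which makes the deoxynucleotides, was 3.89-fold higher (limma adjusted p = 0.012) and E2f1, the factor that drives S phase genes, 2.43-fold (limma adjusted p = 0.011). Pcna, the sliding clamp, differed by 0.73 and did not pass (limma adjusted p = 0.12).

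Among mitosis genes, Bub1, a spindle checkpoint kinase, read 8.06, 8.03, 7.96 and 8.50 at age 42.6 and 5.61, 5.55, 5.62 and 6.40 at age 41.3, 5.06-fold higher (limma adjusted p = 0.0037). Mki67, the standard proliferation antigen, read 11.00 to 11.44 against 9.79 to 10.32 (limma adjusted p = 0.034). On slide 3 Mki67 read 11.06 and 10.98 at age 47.6 and 11.26 and 12.35 at age 37.3, so age 41.3 was lowest. Birc5, survivin, was 2.97-fold higher at age 42.6 (limma adjusted p = 0.017), and Cdk1 differed by 1.87 without passing (limma adjusted p = 0.08). The list's median deviation was 0.67 on array 4 and 0.68 on array 12, of age 37.3, so high values were not limited to age 42.6. Its deviation on array 8 was -0.02, against -0.53 to -0.59 on arrays 5 to 7. The number of the 24 genes called was 2 without array 5 or array 6, 5 without array 1, 2, 3 or 7, 7 without array 4, 12 without array 8, and 17 without array 11 or array 12.

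**Figure D5:**
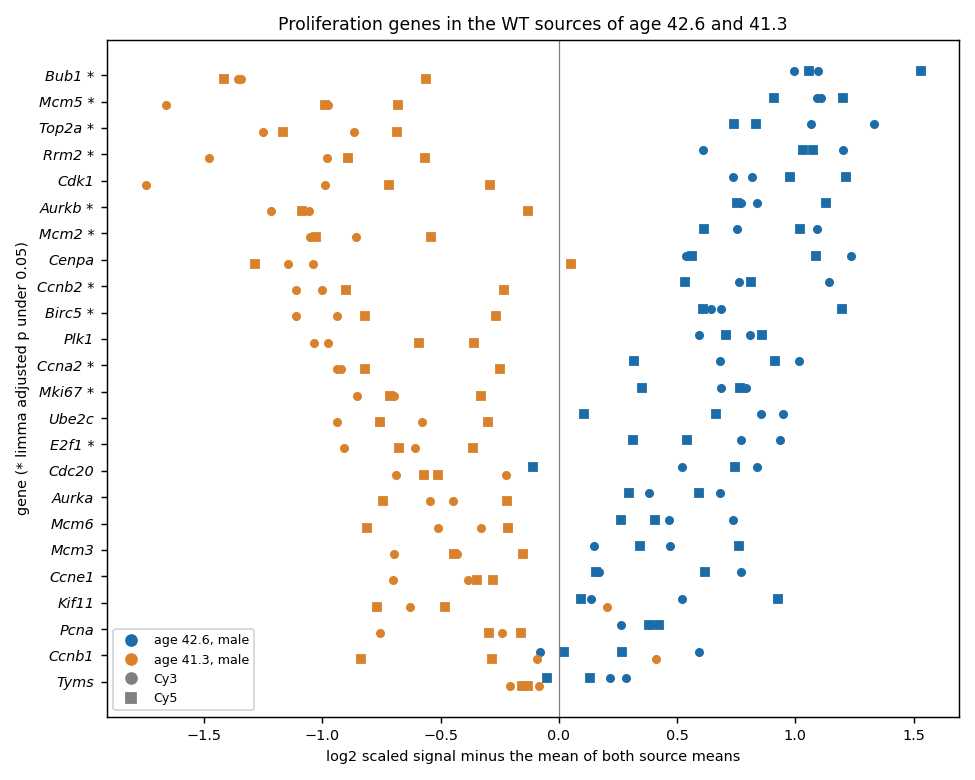
Log2 deviation of 24 proliferation genes on the arrays of ages 42.6 and 41.3 from the mean of both source means; a star marks a limma adjusted p under 0.05. Every array of age 42.6 lies above every array of age 41.3 for 22 of the 24 genes.

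Windows before the listed starts of the 4 matched proliferation genes with the smallest adjusted p are shown because these genes move together. Each is the 250 bases before a transcription start listed in RefSeq, 5′ to 3′ on the gene's strand. The build is GRCm38.p6, a different build from the mm7 of the probes. For E2f1 the listed start is internal, and its window is coding sequence of E2f1 itself, not its promoter. Capitals mark CCAAT, or ATTGG where it lies on the other strand, and TTTGAA. Bub1 lies at chr2:127831860-127832109 on the minus strand, E2f1 at chr2:154569427-154569676 on the minus strand, Mcm2 at chr6:88898781-88899030 on the minus strand, and Rrm2 at chr12:24708004-24708253 on the plus strand.
Bub1: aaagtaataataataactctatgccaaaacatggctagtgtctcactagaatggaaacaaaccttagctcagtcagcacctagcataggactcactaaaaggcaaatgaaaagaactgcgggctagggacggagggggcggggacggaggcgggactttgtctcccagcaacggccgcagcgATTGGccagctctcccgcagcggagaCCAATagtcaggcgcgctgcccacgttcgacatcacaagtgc
E2f1: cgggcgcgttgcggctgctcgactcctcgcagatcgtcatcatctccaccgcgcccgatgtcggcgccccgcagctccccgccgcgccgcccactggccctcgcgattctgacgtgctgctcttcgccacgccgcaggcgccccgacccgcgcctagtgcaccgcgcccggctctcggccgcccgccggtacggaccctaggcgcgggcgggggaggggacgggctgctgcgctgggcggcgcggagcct
Mcm2: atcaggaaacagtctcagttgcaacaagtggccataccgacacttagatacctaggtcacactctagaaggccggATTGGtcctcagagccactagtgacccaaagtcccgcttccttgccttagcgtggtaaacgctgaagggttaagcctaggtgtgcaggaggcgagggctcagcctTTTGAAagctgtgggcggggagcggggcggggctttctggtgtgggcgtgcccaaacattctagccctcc
Rrm2: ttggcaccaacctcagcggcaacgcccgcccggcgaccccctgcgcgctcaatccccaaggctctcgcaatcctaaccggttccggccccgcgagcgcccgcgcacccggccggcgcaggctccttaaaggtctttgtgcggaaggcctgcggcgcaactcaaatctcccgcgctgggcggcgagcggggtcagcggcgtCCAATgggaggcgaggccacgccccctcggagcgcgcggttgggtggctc
Of the 24 genes, 22 had a window in the RefSeq table, and Ccna2 and Aurkb were not matched. The 22 include the coding window of E2f1, and the other starts were not checked. Searched on both strands, CCAAT, which NF-Y binds, was in 18 of the 22 windows (81.8%) and in 33.8% of all 32851 windows of this length. TTTGAA, the core of the cell cycle homology region, was in 8 of 22 (36.4%) and in 16% of all windows. TTCCCGC, an E2F core, was in 0 of 22 and in 3.82% of all windows. These are counts of letters and no test was made. E2f1's window held none of the 3, which says nothing of its promoter. The letters searched do not overlap one another.

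Dye was a small factor for most genes. With source in the model, 3 genes differed between Cy5 and Cy3 (0.0153%), at a limma adjusted p under 0.05, and 1937 at an unadjusted p under 0.05. These were Defb37, a defensin, and 4831440D22Rik, higher in Cy5, and 4930524N10Rik, higher in Cy3. All 3 were well above background on 5 arrays or fewer, so no size is given. The median absolute dye difference of genes on all arrays was 0.20.

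Sex-linked genes were set against the labels. Eif2s3y, a Y-linked translation factor, was not well above background at age 47.6, the female source. It was at least 114-fold higher at age 42.6, 60.3-fold at 41.3 and 105-fold at 37.3. Ddx3y, a Y-linked helicase, was at least 22.5-fold, 18.1-fold and 30.1-fold higher (limma adjusted p over sources = 0.00011). Kdm5d, also Y-linked, was well above background on all 12 arrays. It read 7.52 and 7.33 on arrays 9 and 10 and 8.31 to 9.62 on the male arrays. Xist, which silences an X chromosome in females, was high on arrays 9 and 10 by 3 of its 4 probes, and its brightest probe did not separate them.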

How the data were processed

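Total RNA of flash-frozen tumours was copied from an oligo-dT primer (2 µg input) and labelled with Cy3 or Cy5, per the labels' protocols. The authors deposited the scanner output of 12 two-colour arrays, made with Agilent Feature Extraction 10.1.1.1 (protocol GE2-v5_10_Apr08, design 014868, probe positions in mm7), per the file headers. The processed intensity of each spot and dye was background-subtracted (spatial detrending) and then normalized between the dyes, linear plus lowess, against the KO channel, so WT levels are not independent of that channel; spots at background hold surrogate values. Deposited flags give whether a spot was well above background, saturated or outlying. The deposited mean and background intensities are not normalized and were used for an alternative. The deposited log2 ratios of KO over WT were not used.

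For the WT dye, control and outlier-flagged spots were left out, spots of a probe averaged, log2 taken and each array shifted to a common 75th percentile. Of the probes, 23082 were named by accession through the RefSeq table, 9635 by the file's name, and 8457 had none. A gene took its brightest probe. Tests used limma 3.58.1 in R 4.3.3 (lmFit, eBayes, Benjamini-Hochberg) on genes well above background on at least 2 arrays, with source and dye in the model over all 12 channels. Of these, 84 genes with no value in some source were left out. The model was tested on simulated data. The number of arrays limits the precision.

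Genes were named by rule: the 6 given markers, the Dnmt genes, the 20 highest signals, the 12 largest and 6 smallest SDs, the 12 smallest p over sources and 12 largest source ranges, the 6 largest differences each way between ages 42.6 and 41.3, the 6 smallest dye p, up to 8 members of each list, and sex-linked genes. A few genes that meet this rule are not reported here. Members, lists and motifs were chosen with earlier results of these data known. List members that were not measured are left out of every count. Alternatives covered scaling, background correction, probe choice, filter, threshold, array weights, a signal floor and leaving out each array.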

Additional observations from a re-analysis of the deposited data

Results flagged for a closer look

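In each source of 4 arrays, the array farthest from its group was compared with the range of the group. Of 190 groups checked, 19 had a single array far from the other 3. The limit used is passed about 1 in 20 times by independent, unselected values. Many of the genes were named for a large spread or difference in these same arrays, so the 19 cannot be set against that rate. No explanation was tested for them.

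At age 42.6 the high single values were 9.43 for Dnmt3a, 11.48 for Dnmt1, 19.13 for Lrrc58, 14.66 for 1700124P09Rik and 13.50 for Pam. The low one was 10.27 for Slc15a2. Among list deviations, goblet and mucin genes stood at 2.80, smooth muscle and pericyte genes at 0.592 and liver genes at 1.71 above the other 3 arrays. Neutrophil genes at -1.31 and pancreas, kidney and testis genes at -0.399 stood below them.

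At age 41.3 the low single values were 9.905 for Dnmt1 and 17.86 for Fth1, and -0.0573 for the neuroendocrine list. The high list deviations were 0.25 for pancreas, kidney and testis genes, 0.271 for the p53 pathway, -0.0152 for proliferation, 0.101 for housekeeping and 0.262 for xenobiotic and redox genes.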

How the results depend on the processing

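No paired analysis was possible because the replicate numbers 1 to 12 are unique and no 2 sources share one. No test result or named value turned its direction, but the median difference over all genes between ages 42.6 and 41.3, -0.07, was 0.0211 with no scaling. Levels also depend on the processing: the mean of Sftpc, 19.1, was 17.79 with normexp background correction, loess and quantile normalization. Over the rule-named genes and alternatives, 66 mean levels moved by at least the gene's SD over arrays and 1396 did not. The count of genes differing over the 4 sources, 4548, was 13908 with no scaling and 1276 at an adjusted p under 0.01, and 3098 to 4121 leaving out each array. The count between ages 42.6 and 41.3, 272, was 159 with no scaling, 411 with normexp background correction, 848 with array weights, 40 at an adjusted p under 0.01, and 53 (without array 5) to 268 leaving out each array. Without array 1, 2, 3, 4, 6 or 7 it was 96, 78, 120, 153, 62 or 98. Of these calls 66.9% were higher at age 42.6, and 82.4% with no scaling. The dye count of 3 was 1 with quantile scaling, 1 with normexp, 1 with a signal floor (chosen after seeing the data), 0 on genes on all 12 arrays, 8 with array weights and 0 to 4 leaving out each array. The proliferation count of 11 was 7 with the floor, 18 with array weights and 2 to 17 leaving out each array, while the list's median difference stayed at 1.07 to 1.51. Median SDs moved with their definition: type 2 genes 0.356 and club genes 0.612 over source means, proliferation 0.391 within sources, and ciliated genes 0.477 to 1.11 leaving out each array. The cause of these shifts was not tested. Detection counts rest on the deposited flag, which was not recomputed under other scaling or background correction. Slide 3, with fewer probes above background, limits what can be read there at low signal.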

Other observations

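Genes of other organs were read for comparison. The lists of liver, muscle, brain, and pancreas, kidney and testis genes had median levels of 6.82, 8.15, 7.29 and 7.39, below the 9.30 over all genes. Myh7, the slow myosin heavy chain of heart, read 16.30 to 18.76 on its brightest probe (mean 17.75), and its other probe had a mean of 17.51. Myh6, the other cardiac heavy chain, had a mean of 12.86, and 12.38 on its other probe. Other cardiac genes were low: Tnni3, the cardiac troponin I, had a mean of 7.21, Tnnt2, troponin T, 7.98 and Nppa, the atrial natriuretic peptide, 8.36. Syn1, a synaptic vesicle protein, had a mean of 14.72 on one probe and 3.08, 6.99 and 8.02 on the others. Mbp, a myelin protein, had 14.14 on one probe and 6.34 and 7.19 on the others. The high Syn1 and Mbp values were thus not shared by their other probes, while those of Myh7 and Myh6 were seen on both probes. All of these values are given as measured.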
